A study of Mus musculus with 18 samples.

Results

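The unfolded protein response and the protein folding machinery of the endoplasmic reticulum (ER) were followed through 33 genes, out of 20813 genes tested on the arrays. The genes were taken as a list of mouse symbols, and a probe was counted as a member when its transcript accession matched one of those symbols in the RefSeq table. Of the 33 genes, 31 entered the tests. Canx and Dnajb11 did not meet the conditions on spot quality and detection and are described apart. Expression was measured on single-colour Agilent mouse arrays in macrophages grown from the marrow of the femur. Wild-type mice were compared with mice labelled PHD3-/-, which lack the prolyl hydroxylase encoded by Egln3, and cells of both genotypes were studied as controls, at low oxygen and after starvation.

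All mice were male C57BL/6J, 8 weeks old, and their marrow cells were grown with macrophage colony stimulating factor over 7 days. The 6 groups of 3 samples were wild-type control, wild-type low oxygen, wild-type starved, PHD3-/- control, PHD3-/- low oxygen and PHD3-/- starved. The labels give oxygen as 1 for the low-oxygen groups and as 20 for the other four, without a unit, and no source used here gives the duration of low oxygen or starvation. The design text speaks of feeding, without saying whether mice or cultured cells were starved. The low-oxygen groups carry the same feeding label as the controls. The design text also names 3 mice per group, and samples with the same number in different groups are not stated to come from the same mouse, so p-values measure the spread between samples as labelled. How the knockout was made is not given, so the position of the Egln3 probe relative to the deletion is unknown and its signal does not check the genotype.

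The ER is where secreted and membrane proteins fold. Hspa5 (BiP), an HSP70 chaperone, binds unfolded chains there and also holds the sensors ATF6, IRE1 (Ern1) and PERK (Eif2ak3) in check. When unfolded chains accumulate, IRE1 splices the Xbp1 transcript, ATF6 is cleaved to release a transcription factor, and PERK phosphorylates the translation factor eIF2 alpha. Their transcriptional targets include chaperones, disulfide enzymes and the components of ER-associated degradation (ERAD), which returns misfolded proteins to the cytosol for destruction. Ero1a, the oxidase that recharges the disulfide isomerases with oxidising power from molecular oxygen, is also a known target of hypoxia-inducible factor. Macrophages secrete cytokines, proteases and complement proteins, which pass through this machinery. Arrays measure transcript abundance, so cleavage of ATF6, splicing of Xbp1 and phosphorylation of PERK or eIF2 alpha were not observed.

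The ER stress element (ERSE), CCAAT and CCACG separated by 9 free bases, is the sequence through which ATF6 and XBP1 with NF-Y are known to act, and the related ERSE-II is ATTGG and CCACG separated by 1 free base. Both were searched on both strands of the RefSeq promoter windows of build GRCm38.p6, which run from 250 bases before to 50 bases after the transcript start. A window was present for 28 of the 33 genes, and none for Atf6, Derl1, Hyou1, Manf and Ppp1r15b. ERSE was found in 10 of the 28 genes and in 39 of all 32851 windows (0.119%), and ERSE-II in 2 of the 28 and in 12 of all windows (0.0365%). The matched elements are shown in the orientation of the motif, with the fixed letters in capitals, because ATF6 and XBP1 are known to act through them. Not every classic target has one in this window: Dnajb9, Edem1, Sdf2l1, Pdia4 and Xbp1 held neither. The number is the position of the match's leftmost base on the gene's strand, counted from the transcript start.
Hspa5 ERSE at -65: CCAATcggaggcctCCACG
Hsp90b1 ERSE at -212: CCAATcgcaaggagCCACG
Hsp90b1 ERSE at -107: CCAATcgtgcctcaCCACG
Calr ERSE at -162: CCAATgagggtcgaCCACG
Canx ERSE at -145: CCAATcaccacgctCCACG
Pdia6 ERSE at -98: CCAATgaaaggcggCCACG
Ero1b ERSE at -201: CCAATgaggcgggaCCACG
Creld2 ERSE at -126: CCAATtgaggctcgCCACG
Dnajc3 ERSE at -105: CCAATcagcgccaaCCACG
Syvn1 ERSE at -44: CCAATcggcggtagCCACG
Derl3 ERSE at -156: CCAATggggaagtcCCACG
Herpud1 ERSE-II at -52: ATTGGgCCACG
Dnajb11 ERSE-II at 8: ATTGGcCCACG

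The windows of 4 genes whose transcripts changed at low oxygen are shown whole, from 5' to 3' on the strand of the gene. That of Hspa5 lies at chr2:34771840-34772139 on the plus strand and that of Herpud1, an ERAD scaffold protein, at chr8:94386179-94386478 on the plus strand, with ERSE and ERSE-II in capitals. That of Ero1a lies at chr14:45318523-45318822 on the minus strand and that of P4hb, the protein disulfide isomerase PDI, at chr11:120573204-120573503 on the minus strand. In these last windows the capitals mark ACGTG or GCGTG on either strand, the cores of the elements that hypoxia-inducible factors bind. The windows of Hspa5 and Herpud1 also hold 2 of these cores each, which are not marked as such.
Hspa5 promoter: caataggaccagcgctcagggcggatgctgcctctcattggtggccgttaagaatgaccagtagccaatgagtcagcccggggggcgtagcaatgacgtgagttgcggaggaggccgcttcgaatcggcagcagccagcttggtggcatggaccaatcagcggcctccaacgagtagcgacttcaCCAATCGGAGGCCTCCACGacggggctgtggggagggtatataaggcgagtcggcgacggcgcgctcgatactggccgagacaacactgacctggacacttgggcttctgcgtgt
Herpud1 promoter: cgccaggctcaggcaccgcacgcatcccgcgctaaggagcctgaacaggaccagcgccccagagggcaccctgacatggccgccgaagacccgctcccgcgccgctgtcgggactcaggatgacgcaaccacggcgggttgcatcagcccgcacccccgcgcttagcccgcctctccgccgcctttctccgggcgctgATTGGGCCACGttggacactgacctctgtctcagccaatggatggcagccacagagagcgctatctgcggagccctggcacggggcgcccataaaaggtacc
Ero1a promoter: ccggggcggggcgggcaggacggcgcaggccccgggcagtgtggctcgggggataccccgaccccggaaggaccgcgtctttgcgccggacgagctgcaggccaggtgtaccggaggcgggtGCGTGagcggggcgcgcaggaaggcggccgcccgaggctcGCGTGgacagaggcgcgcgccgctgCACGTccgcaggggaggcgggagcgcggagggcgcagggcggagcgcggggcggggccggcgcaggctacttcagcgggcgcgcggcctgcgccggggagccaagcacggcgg
P4hb promoter: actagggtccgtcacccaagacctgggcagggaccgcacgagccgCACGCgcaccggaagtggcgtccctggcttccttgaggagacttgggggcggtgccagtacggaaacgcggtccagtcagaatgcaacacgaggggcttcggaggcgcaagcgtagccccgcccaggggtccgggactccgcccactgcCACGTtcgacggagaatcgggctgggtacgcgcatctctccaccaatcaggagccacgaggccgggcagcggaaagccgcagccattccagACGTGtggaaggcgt

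Ero1a held 3 such cores and P4hb 3, and neither held ERSE or ERSE-II. These short cores are frequent: ACGTG stood in 12 of the 28 genes and in 19.6% of all windows, GCGTG in 20 and in 32.4%, and at least 1 of them in 22 genes and in 43.8% of all windows. They can lie within the longer elements, as 6 of the 13 ERSE and ERSE-II matches overlapped a core, including that of Herpud1. The UPRE letters TGACGTGG were in none of the 28 genes and in 0.676% of all windows. The core TGATGCAA, which CHOP and ATF4 bind, was in Herpud1 alone among the 28 and in 0.895% of all windows. A match describes the letters and not binding, and a missing match says only that these letters are not in the window.

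Levels are log2 signals relative to the 75th percentile of the same array, which is set to 0, and levels of different genes are not compared. Between 56.1% and 65.4% of spots were well above background on the 20 arrays, and no spot was saturated. At low oxygen the hypoxia-induced genes Vegfa, Slc2a1 and Bnip3 rose by 4.02, 3.99 and 4.48 on the log2 scale in wild type. Egln3 itself lay between -3.77 and -3.10 in wild-type controls, between -4.20 and -3.76 in PHD3-/- controls, between 2.83 and 3.00 in wild type at low oxygen and between 2.71 and 2.98 in PHD3-/- at low oxygen. The macrophage markers on the array, 6 of 7 listed, were well above background in every sample of every group. Their summed level, in which the brightest markers weigh most, was higher at low oxygen (8.40 to 8.46 in wild type, 8.14 to 8.38 in PHD3-/-) than in controls (8.18 to 8.39 and 7.92 to 8.12). In starved samples it was 8.23 to 8.33 and 7.90 to 8.08, and in each condition PHD3-/- samples lay below wild type without overlap. Taken singly, 16.7% of the 6 markers rose and 33.3% fell at low oxygen in each genotype. Of all genes tested, 20.5% rose and 18.1% fell in wild type, and 21.4% and 18.3% in PHD3-/-. Among markers of other cells, Cd79a of B cells and Fcer1a of mast cells were not well above background in any sample, but others of these cells were. Of 7 plasma and B cell markers on the array, between 2 and 5 were detected in all samples of a group. Of 4 dendritic cell markers, 2 or 3 were, with a summed level between 5.65 and 6.51. The summed plasma and B cell markers were lower at low oxygen (2.11 to 2.61) than in controls (2.81 to 3.16). Summed neutrophil markers lay between 3.26 and 4.20 in controls and between 2.36 and 3.26 in the other groups, where Ngp was not well above background in any sample of 3 of the 4 groups. Summed stromal and endothelial markers lay between 0.54 and 1.47 in control and low-oxygen samples and between -1.27 and -0.86 in starved samples, with all 5 detected in every group. In RNA from whole cultures, fewer cells of a type and less RNA per cell cannot be told apart.

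At low oxygen, 12 of the 31 genes rose and 2 fell in wild-type macrophages (limma, adjusted p under 0.05). That is 38.7% that rose and 6.5% that fell, against 20.5% and 18.1% of all genes tested. In PHD3-/- macrophages 12 rose and 3 fell, or 38.7% and 9.7%, against 21.4% and 18.3% of all genes. In either direction 45.2% of the 31 genes passed in wild type and 48.4% in PHD3-/-, against 38.6% and 39.7% of all genes, so a call by itself was common on these arrays. Ero1a and P4hb, which form and pass on disulfide bonds, rose most, followed by the co-chaperone Dnajb9, the eIF2 alpha phosphatase subunit Ppp1r15a and the sensor Ern1, and the ERAD scaffold Herpud1 fell most. The median log2 change of the 31 genes was 0.20 in wild type and 0.21 in PHD3-/-, and that of all genes 0.03 in both. The group means of the 31 genes spanned a median of 0.46 over the 6 groups, compared with 0.60 for all genes, and 4 of 31 (12.9%) spanned at least 1, compared with 24.8% of all genes. Those with the wide span were Ero1a, P4hb, Ppp1r15a and Dnajb9.

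**Figure D1:**
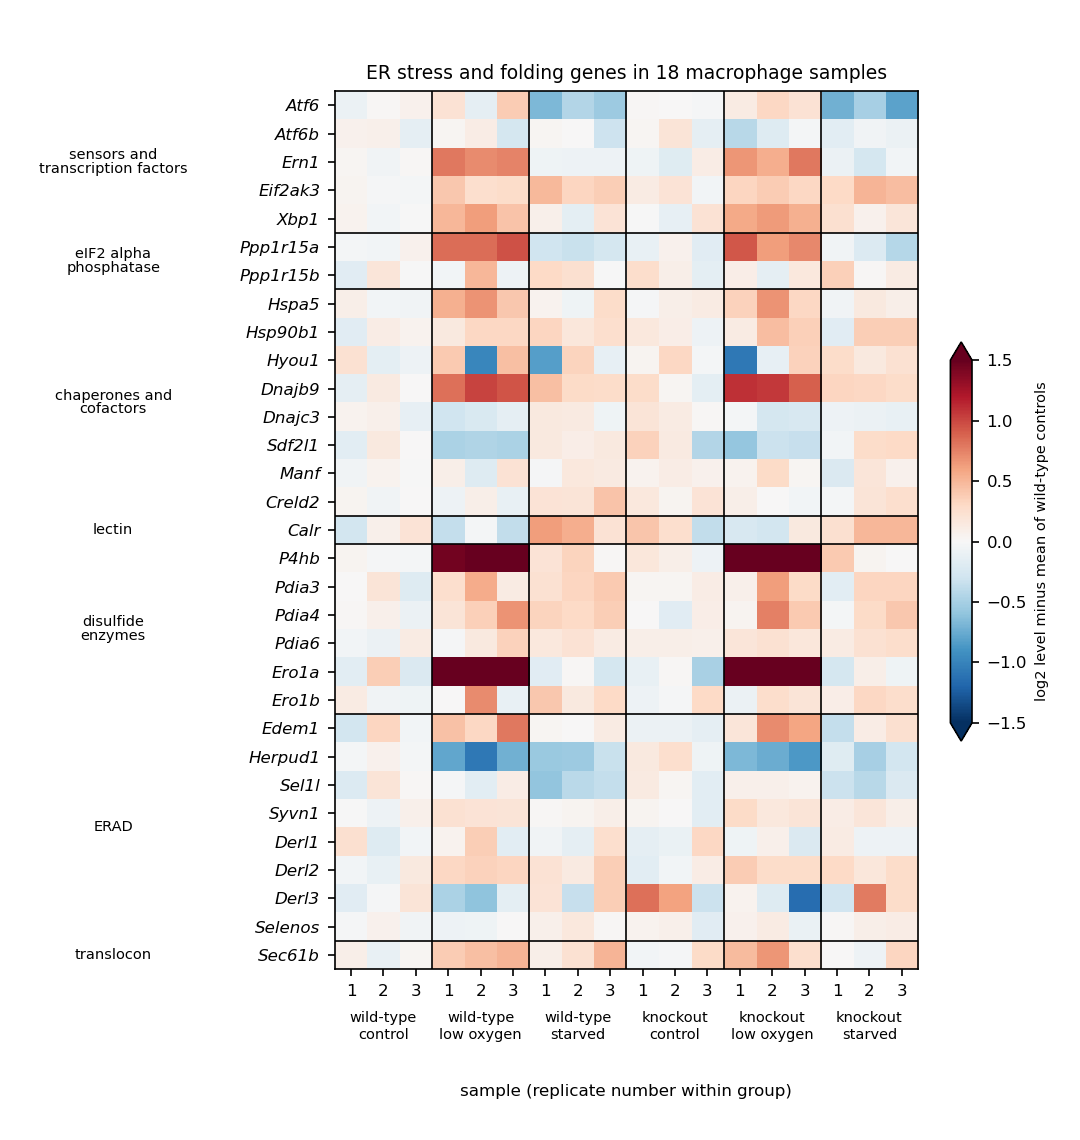
Colour gives the log2 level of each of the 31 tested genes (rows, by role) in each of the 18 samples (columns, by group and replicate) minus the mean of the wild-type controls, with the scale ending at -1.5 and 1.5. P4hb and Ero1a are darkest in the 6 low-oxygen samples, where Herpud1 is blue, and Atf6 is blue in the 6 starved samples.

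Ero1a had the largest response among the disulfide enzymes. Its log2 level was -0.72, -0.19 and -0.77 in wild-type controls and 3.83, 4.34 and 3.93 at low oxygen. In PHD3-/- cells it was -0.67, -0.55 and -1.05 in controls and 3.61, 3.86 and 3.97 at low oxygen. All 6 low-oxygen samples lay far above all 12 others, with no overlap in either genotype. The rise was 4.59 ± 0.19 (SE, n = 3 per group) in wild type, a 24.2-fold change (adjusted p = 2.05e-10), and 4.57 ± 0.19 in PHD3-/- (adjusted p = 2.03e-10). On the slides that held both groups the difference was 5.06 in wild type (1 slide) and 4.08 to 4.70 in PHD3-/- (3 slides). On slide 5 the PHD3-/- arrays were second arrays of low-oxygen replicate 1 and control replicate 1. The 3 slides therefore repeat samples in this comparison, for the other genes too.

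P4hb, the isomerase that Ero1a reoxidises, was at 2.94, 2.87 and 2.87 in wild-type controls and at 4.33, 4.66 and 4.53 at low oxygen. In PHD3-/- cells its levels were 3.07, 2.98 and 2.82 in controls and 4.77, 4.46 and 4.42 at low oxygen. Every low-oxygen sample was above every control. The log2 rise was 1.62 ± 0.13 in wild type (3.06-fold, adjusted p = 2.92e-07) and 1.59 ± 0.13 in PHD3-/- (3.02-fold, adjusted p = 3.14e-07), and within slides it was 1.72 and between 1.35 and 1.78.

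The other isomerases and the paralogous oxidase did not pass the test, although some did under an alternative. Pdia4 differed by 0.41 ± 0.17 in wild type (95% interval 0.05 to 0.77, adjusted p = 0.0679) and by 0.42 ± 0.17 in PHD3-/- (adjusted p = 0.0584). It passed without low-oxygen replicate 1, at 0.52 in wild type (adjusted p = 0.0427) and 0.60 in PHD3-/- (adjusted p = 0.00994), in wild type with the slide in the fit (0.57, adjusted p = 0.04), and in PHD3-/- with detection required in all 18 samples (adjusted p = 0.0456). Pdia3, the isomerase that works with calnexin and calreticulin, differed by 0.31 and 0.27 with overlapping groups, and passed in wild type with slide as a block (0.54, adjusted p = 0.03). Pdia6 differed by 0.16 and 0.11, and a second, dimmer probe of the same gene by 0.46 and 0.33, and the mean of the probes passed in wild type (0.31, adjusted p = 0.0264). Ero1b, the oxidase paralogue, differed by 0.20 (interval -0.19 to 0.58) in wild type and 0.06 (-0.33 to 0.44) in PHD3-/-. These intervals lie wholly below the change of Ero1a in the same cells.

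Among sensors and transcription factors, Ern1, Xbp1 and Eif2ak3 rose at low oxygen in both genotypes, while Atf6 and Atf6b did not pass. Ern1, the IRE1 kinase and RNase, was at -1.03, -1.11 and -1.04 in wild-type controls and at -0.27, -0.35 and -0.32 at low oxygen. Its PHD3-/- levels were -1.13, -1.25 and -0.95 in controls and -0.40, -0.52 and -0.27 at low oxygen. The groups were separate, and the rise was 0.75 ± 0.09 (adjusted p = 2e-05) and 0.71 ± 0.09 (adjusted p = 2.99e-05).

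Xbp1, the transcript that IRE1 splices, was at 4.65, 4.56 and 4.60 in wild-type controls and at 5.10, 5.23 and 5.03 at low oxygen, again without overlap. It rose by 0.52 ± 0.11 (adjusted p = 0.00151) in wild type and 0.55 ± 0.11 (adjusted p = 0.0009) in PHD3-/-. The probe was not shown to separate spliced from unspliced Xbp1. Eif2ak3, the PERK kinase, rose by 0.31 ± 0.09 (adjusted p = 0.0122) and 0.25 ± 0.09 (adjusted p = 0.0393). In wild type that call was lost without low-oxygen replicate 1 (adjusted p = 0.0563), with normexp background correction (0.0831) and with slide as a block (0.0777). In PHD3-/- it was lost without any low-oxygen replicate or control replicate 1 or 3 (adjusted p between 0.0612 and 0.147), with normexp (0.311) and without a filter on background (0.09). The PHD3-/- difference was 0.18 without control replicate 3. Atf6 differed by 0.16 (interval -0.11 to 0.42) and 0.21 (-0.05 to 0.48), passing in wild type only without low-oxygen replicate 2 (0.30, adjusted p = 0.049), and its homologue Atf6b by -0.04 and -0.25.

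Ppp1r15a (GADD34) brings protein phosphatase 1 to eIF2 alpha and so reverses PERK signalling. It was at 2.96, 2.95 and 3.06 in wild-type controls and at 3.83, 3.82 and 3.94 at low oxygen, and in PHD3-/- at 2.88, 3.05 and 2.82 and at 3.92, 3.62 and 3.72. No low-oxygen sample fell near a control, and the rise was 0.88 ± 0.11 (adjusted p = 1.34e-05) and 0.83 ± 0.11 (adjusted p = 1.94e-05). Ppp1r15b, the constitutive counterpart of that subunit, differed by 0.13 (interval -0.23 to 0.48) and -0.03 (-0.38 to 0.33).

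**Figure D2:**
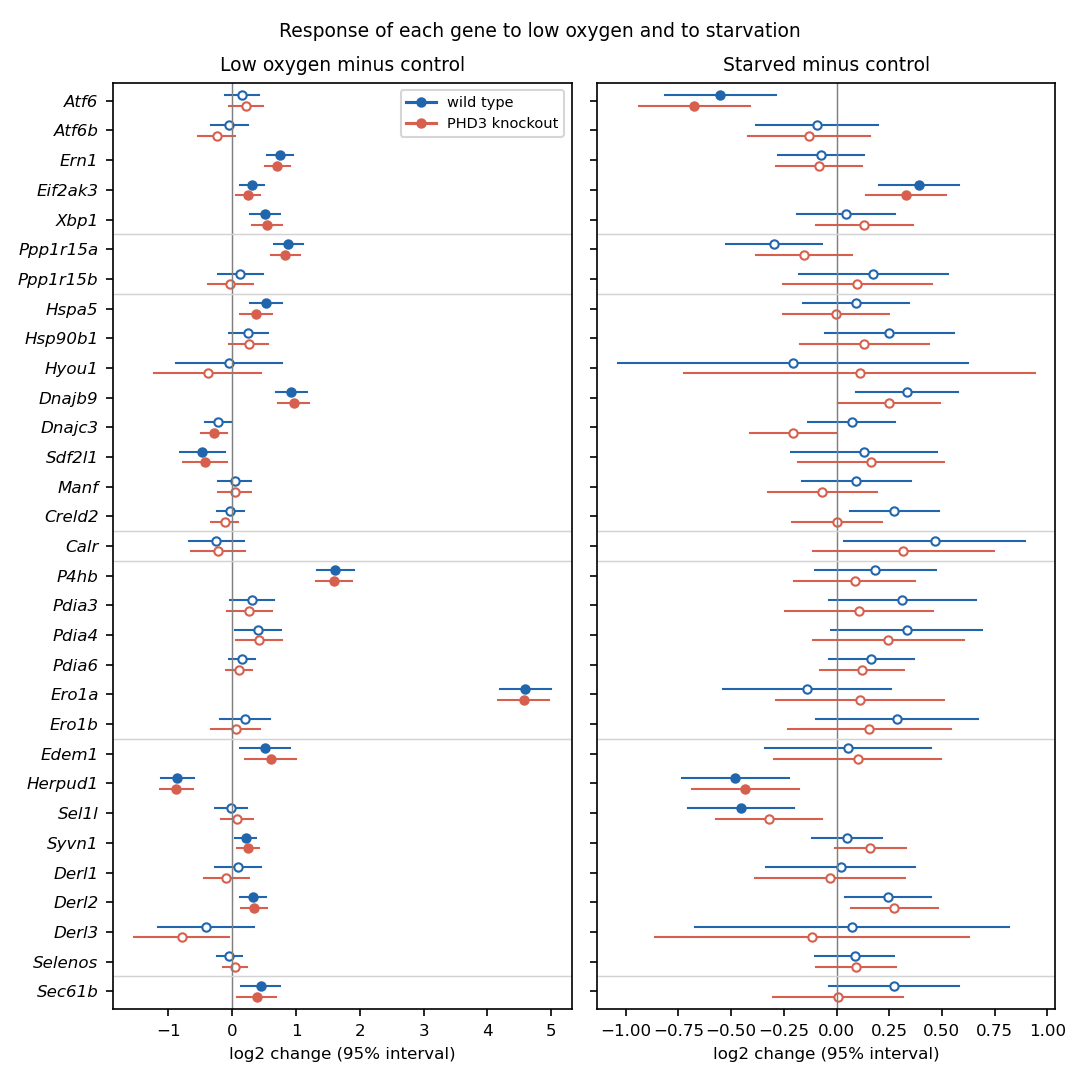
Points give the log2 change of each of the 31 genes (rows, by role) with its 95% interval, in wild type (blue) and PHD3-/- (red), for low oxygen against control (left) and starvation against control (right, with a narrower axis). Filled points passed limma's test at an adjusted p under 0.05, and the blue and red points lie close together in most rows.

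The chaperones were mixed. Of 8 tested HSP70 and HSP90 chaperones and their cofactors, 2 rose and 1 fell at low oxygen in wild type (20.5% and 18.1% of all genes), and 2 rose and 2 fell in PHD3-/- (21.4% and 18.3% of all genes), counts near those shares. Dnajb9 (ERdj4), a co-chaperone of BiP and a classic Xbp1 target, was at 0.94, 1.21 and 1.08 in wild-type controls and at 1.90, 2.09 and 2.02 at low oxygen. In PHD3-/- its levels were 1.35, 1.10 and 0.93 and then 2.18, 2.14 and 1.97. Low-oxygen samples were above all controls, with a rise of 0.93 ± 0.11 (1.90-fold, adjusted p = 1.28e-05) and 0.97 ± 0.11 (1.95-fold, adjusted p = 7.92e-06), and another Dnajb9 probe gave 1.04 and 1.21.

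Hspa5 was at 5.69, 5.56 and 5.55 in wild-type controls and at 6.13, 6.27 and 6.01 at low oxygen. In PHD3-/- it was at 5.58, 5.69 and 5.72 in controls and at 5.94, 6.27 and 5.91 at low oxygen. The groups did not overlap in either genotype, but PHD3-/- replicate 2 stood higher than the other low-oxygen samples of that genotype. The rise was 0.54 ± 0.12 in wild type (1.45-fold, adjusted p = 0.00224) and 0.38 ± 0.12 in PHD3-/- (1.30-fold, adjusted p = 0.0184). The PHD3-/- call was lost without low-oxygen replicate 2 (0.26, adjusted p = 0.103) or control replicate 1 (0.34, adjusted p = 0.0689), with quantile normalization (0.14, adjusted p = 0.321), in the authors' table (0.15, 0.332) and with normexp (0.36, 0.221).

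Hsp90b1 (GRP94), the ER HSP90 whose window holds ERSE at -212 and -107, differed by 0.26 ± 0.14 in both genotypes (adjusted p = 0.177 and 0.173). Manf, a secreted cofactor of BiP, differed by 0.04 in both, and Creld2 by -0.03 and -0.12. Hyou1 (GRP170), the nucleotide exchange factor of BiP, was dim, with wide intervals (-0.88 to 0.79 in wild type), and 1 of 3 wild-type low-oxygen samples was not well above background.

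Cofactors that fell were Sdf2l1 and Dnajc3. Sdf2l1, which keeps the BiP cycle of Dnajb11 going, was at 1.58, 1.88 and 1.73 in wild-type controls and at 1.25, 1.27 and 1.25 at low oxygen, below every control. It changed by -0.47 ± 0.16 (adjusted p = 0.0336) and by -0.43 ± 0.16 in PHD3-/- (adjusted p = 0.0498), where 1 control at 1.29 lay among the low-oxygen samples. Leaving out any low-oxygen replicate, or wild-type control replicate 2 or 3 or PHD3-/- control replicate 1 or 2, ended the call (adjusted p between 0.0663 and 0.237). So did normexp, slide as a block and testing without a filter in both genotypes, and in PHD3-/- also quantile normalization, the authors' table and the first array alone (adjusted p between 0.0562 and 0.110). Dnajc3 (p58IPK), a co-chaperone that was first known as an inhibitor of eIF2 alpha kinases, fell by 0.29 ± 0.10 in PHD3-/- (adjusted p = 0.0258), a call lost without low-oxygen replicate 2 or 3 or control replicate 1 or 2 (adjusted p between 0.0676 and 0.100), with normexp (0.234) or without a filter (0.0598). In wild type it differed by -0.22 ± 0.10 (adjusted p = 0.0876), and the difference between the genotypes did not pass (interaction adjusted p = 1.00).

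The lectin chaperones calreticulin and calnexin hold glycoproteins until they fold. Calr differed by -0.25 (interval -0.68 to 0.18) and -0.22 (-0.65 to 0.21) at low oxygen, with overlapping groups. Without the 3 samples that stood apart in an earlier analysis (wild-type control replicate 1, wild-type starved replicate 3 and PHD3-/- control replicate 3) it passed in PHD3-/- (-0.46, adjusted p = 0.0309). Canx had flagged spots on 12 of 20 arrays although it was well above background in all 18 samples. With flagged spots kept, an alternative added after seeing the data, it lay between 4.52 and 4.84 in wild type at low oxygen and had a mean of 4.25 ± 0.14 (SD, n = 3) in controls, a rise of 0.41 ± 0.11 (adjusted p = 0.0103), with 0.45 ± 0.11 in PHD3-/- (adjusted p = 0.00524). Every PHD3-/- low-oxygen array was flagged for Canx, so the PHD3-/- rise rests on flagged spots alone on its low-oxygen side. Dnajb11 was well above background in 1 of 18 samples, so no change is given.

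In ERAD, 3 of 8 genes rose and 1 fell at low oxygen in each genotype, against 20.5% and 18.1% of all genes in wild type and 21.4% and 18.3% in PHD3-/-. Herpud1, which organises the degradation complex around the ligase Syvn1, was at 4.26, 4.36 and 4.26 in wild-type controls and at 3.52, 3.23 and 3.57 at low oxygen. Its PHD3-/- levels were 4.44, 4.55 and 4.23 in controls and 3.62, 3.55 and 3.43 at low oxygen. Every low-oxygen sample was below every control, and Herpud1 fell by 0.86 on the log2 scale in wild type (SE 0.12, adjusted p = 4.88e-05) and by 0.88 in PHD3-/- (SE 0.12, adjusted p = 3.66e-05). Within slides it changed by -1.04 in wild type and by -0.97 to -0.83 in PHD3-/-.

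The ERAD genes that rose did so by less. Edem1, a mannosidase-like protein that hands glycoproteins to ERAD, rose by 0.51 ± 0.18 in wild type (adjusted p = 0.04), with overlapping groups, and by 0.60 ± 0.18 in PHD3-/- (adjusted p = 0.0174). Derl2, a derlin of the retrotranslocation complex, rose by 0.32 ± 0.10 (adjusted p = 0.0149) and 0.34 ± 0.10 (adjusted p = 0.0117). Syvn1 (HRD1), the ubiquitin ligase, rose by 0.21 ± 0.08 (adjusted p = 0.047) and 0.25 ± 0.08 (adjusted p = 0.0215). Its adaptor Sel1l differed by -0.02 and 0.07, Selenos, which recruits the p97 ATPase, by -0.04 and 0.04, and Derl1 by 0.09 and -0.09, where its other probe gave -0.18 in both genotypes. Derl3 was variable, at -0.42, -0.65 and -1.57 in PHD3-/- controls and -1.19, -1.44 and -2.39 at low oxygen, and its difference of -0.79 ± 0.35 (adjusted p = 0.0856) passed without low-oxygen replicate 1 (-1.03, adjusted p = 0.0454) or control replicate 3 (-1.14, adjusted p = 0.0184). These smaller rises depended on single samples and on the processing. Syvn1 gave 0.13 with quantile normalization (adjusted p = 0.239) and 0.12 in the authors' table (0.297) in wild type, and 0.18 (0.101) and 0.17 (0.141) in PHD3-/-. In wild type its call held under none of normexp, either other filter on background, the first array alone, slide as a block and leaving out the 3 samples (adjusted p between 0.0524 and 0.317), and in PHD3-/- it was lost with normexp, without a filter and without the 3 samples (0.0586 to 0.138). With normexp Derl2 gave 0.19 in wild type (adjusted p = 0.58) and 0.38 in PHD3-/- (0.163), where the authors' table also ended the call (0.0552). Edem1 lost its call with normexp in both genotypes (adjusted p = 0.188 and 0.0637), and in wild type without a filter (0.0718), with slide as a block (0.0557) and without the 3 samples (0.178). In wild type the Edem1 call was lost without low-oxygen replicate 1 or 3 or control replicate 1 or 3 (adjusted p between 0.0626 and 0.158), the Syvn1 call without any low-oxygen replicate or control replicate 1 or 2 (0.0772 to 0.161), and the Derl2 call without control replicate 2 (0.0694). In PHD3-/- the Edem1 call was lost without low-oxygen replicate 2 (0.0797) or 3 (0.0577), the Syvn1 call without low-oxygen replicate 1 (0.0777) or control replicate 3 (0.0879), and the Derl2 call without control replicate 1 (0.0621).

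Sec61b, a subunit of the channel through which chains enter the ER, was at 4.95, 4.74 and 4.88 in wild-type controls and at 5.23, 5.31 and 5.37 at low oxygen, above every control. It rose by 0.45 ± 0.14 (adjusted p = 0.0233) and, with overlapping groups, by 0.38 ± 0.14 in PHD3-/- (adjusted p = 0.0464), and its other probe gave 0.47 and 0.46. The call was lost in wild type without replicate 2 or 3 of either group (adjusted p between 0.0513 and 0.0861) and in PHD3-/- without replicate 1 or 2 of either group (0.0939 to 0.189). Quantile normalization gave 0.30 (adjusted p = 0.0903) and 0.22 (0.202), and the authors' table gave 0.28 (0.123) and 0.13 (0.481). Normexp ended both calls (0.110 and 0.199), and in PHD3-/- so did the first array alone (0.101) and testing without a filter (0.0864).

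**Figure D3:**
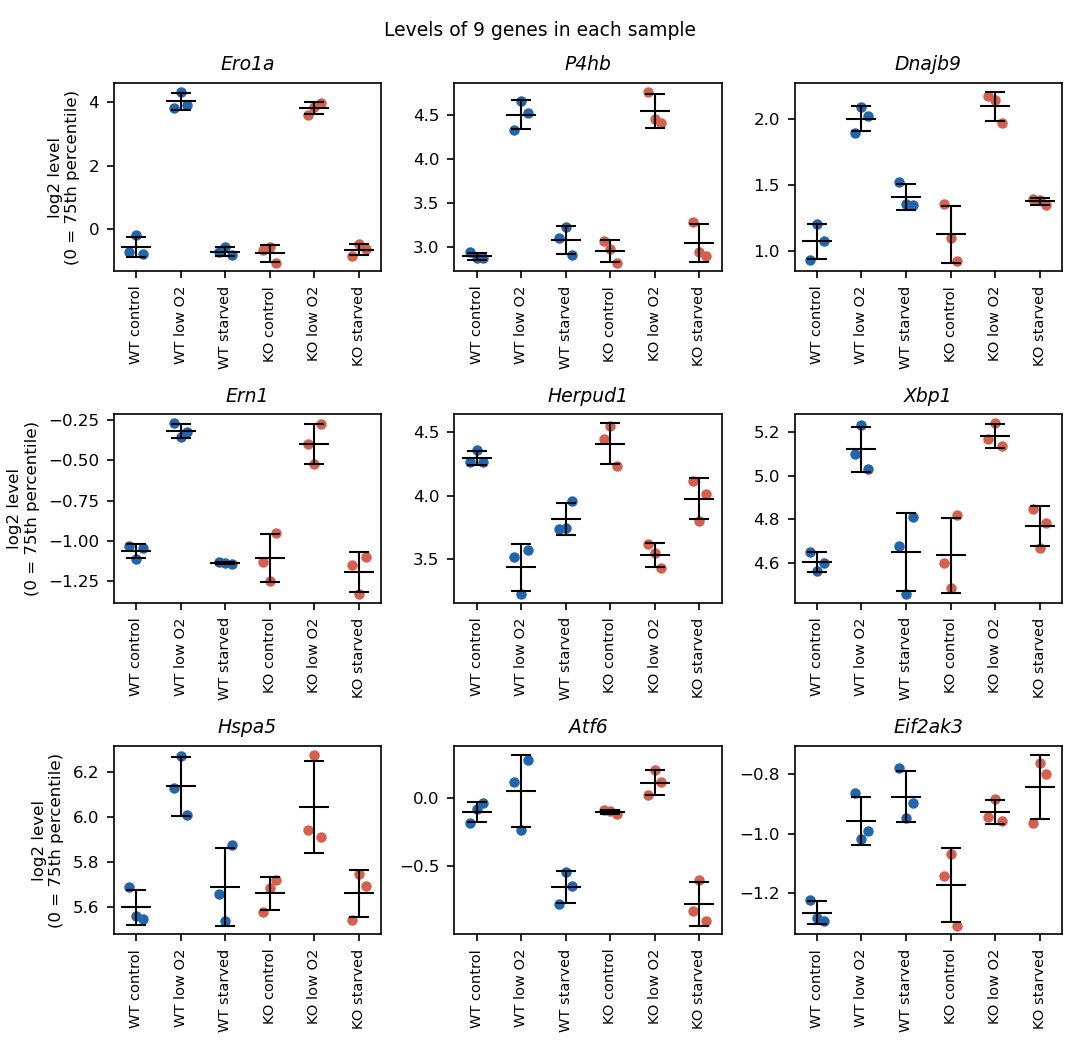
Points give the log2 level (0 is the 75th percentile of the array) of 9 genes in each of the 3 samples of the 6 groups, wild type (WT) in blue and PHD3-/- (KO) in red, with horizontal bars for the mean and its SD. Ero1a, P4hb, Dnajb9, Ern1, Xbp1 and Hspa5 are higher at low oxygen in both genotypes, Herpud1 is lowest there, and Atf6 is lowest in starved samples.

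Over the low-oxygen comparisons as a whole, 8 of the 14 calls in wild type and 7 of the 15 in PHD3-/- stood under all 17 alternatives, and no call changed direction. With normexp background correction 7 genes rose in wild type and 6 in PHD3-/-. In the same low-oxygen samples the summed plasma and B cell markers and the summed neutrophil markers were lower, by the values given with the marker lists. Of the 5 tested plasma and B cell markers, 20% rose and 80% fell in each genotype. Of the 6 neutrophil markers none rose, and 66.7% fell in wild type and 50% in PHD3-/-. Of all genes, 20.5% rose and 18.1% fell in wild type, and 21.4% and 18.3% in PHD3-/-. The summed macrophage markers were higher at low oxygen, although more single macrophage markers fell than rose. The part of any of these markers in the changes of these genes was not tested.

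Grouped by promoter letters, the 10 tested genes with ERSE or ERSE-II had a median log2 change at low oxygen of 0.06 in wild type (range -0.86 to 0.54), with 2 that rose, Hspa5 and Syvn1, and 1 that fell, Herpud1, against 20.5% and 18.1% of all genes. In PHD3-/- their median was -0.03, with 2 that rose and 2 that fell, against 21.4% and 18.3%. Of these 10 genes, 8 also held a hypoxia core, with 2 each in Hspa5 and Herpud1, so the classes do not separate genes with a core from genes without one. With a hypoxia core and no ER element, 12 genes had medians of 0.48 in wild type (range -0.47 to 4.59) and 0.49 in PHD3-/-. Of them, 7 rose and 1 fell in each genotype, against 20.5% and 18.1% of all genes in wild type and 21.4% and 18.3% in PHD3-/-. The 4 genes with neither, Pdia4, Derl2, Xbp1 and Eif2ak3, had a median of 0.37 and 0.38. In each genotype 3 of these 4 rose and none fell, against the same shares of all genes. The 5 genes without a window had medians of 0.09 and -0.03, and none passed. The members of these classes were not compared by a test, and the windows do not cover distal elements.

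**Figure D4:**
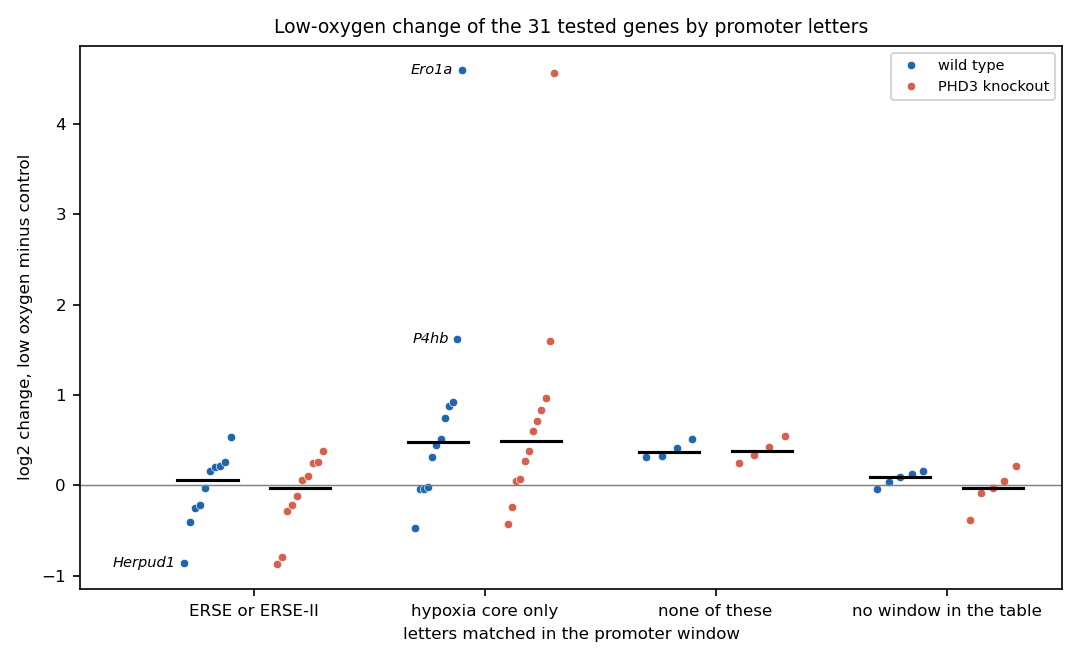
Each point is a tested gene, placed by the letters found in its promoter window (horizontal) and its log2 change at low oxygen (vertical), in wild type (blue) and PHD3-/- (red), with black bars for the medians. Genes with ERSE or ERSE-II lie around 0 with Herpud1 lowest, while Ero1a and P4hb stand alone at the top of the genes with a hypoxia core only.

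Starvation, compared with the same control samples as low oxygen, changed few of these genes. In wild type 1 of 31 rose (3.2%) and 3 fell (9.7%), against 6.49% and 6.02% of all genes tested. In PHD3-/- 1 rose (3.2%) and 2 fell (6.5%), against 7.13% and 6.38%. In either direction the shares were 12.9% and 9.7%, against 12.5% and 13.5% of all genes, and so near the background. Their median log2 change was 0.09 and 0.10, compared with 0.02 and 0.01 over all genes. None of the disulfide enzymes, chaperones or lectins passed in either genotype, and the intervals of Ero1a ran from -0.54 to 0.26 in wild type and from -0.29 to 0.51 in PHD3-/-.

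The sensors Atf6 and Eif2ak3 moved in opposite directions after starvation. Atf6 was at -0.18, -0.08 and -0.04 in wild-type controls and at -0.77, -0.54 and -0.64 when starved. In PHD3-/- it was at -0.09, -0.10 and -0.12 in controls and at -0.82, -0.60 and -0.90 when starved. All starved samples were below all controls, and the change was -0.55 ± 0.12 (adjusted p = 0.00747) and -0.67 ± 0.12 (adjusted p = 0.0018). Within slides it was -0.61 to -0.46 and -0.83 to -0.50, and the wild-type call was lost with normexp background correction (-0.46, adjusted p = 0.064).

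Eif2ak3 was at -1.22, -1.28 and -1.29 in wild-type controls and at -0.78, -0.95 and -0.90 when starved, without overlap. It rose by 0.39 ± 0.09 (adjusted p = 0.00814), with 0.34 to 0.44 within slides, and this call stood under all 17 alternatives. In PHD3-/- it rose by 0.33 ± 0.09 (adjusted p = 0.0213), a call lost without control replicate 3 (0.26, adjusted p = 0.0918) or starved replicate 2 (0.29, adjusted p = 0.088) or 3 (0.31, adjusted p = 0.0742), with normexp (0.21, adjusted p = 0.621), without a filter (0.0582) and without the 3 samples that stood apart (0.106). Ern1 differed by -0.07 and -0.08.

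In ERAD, Herpud1 and Sel1l fell after starvation in wild type. Herpud1 was at 3.74, 3.75 and 3.96 in starved wild type, below the controls given before, and changed by -0.48 ± 0.12 (adjusted p = 0.0149). In PHD3-/- it was at 4.11, 3.80 and 4.01 and changed by -0.43 ± 0.12 (adjusted p = 0.0253). Sel1l was at 0.99, 1.39 and 1.21 in wild-type controls and at 0.60, 0.79 and 0.84 when starved, a change of -0.45 ± 0.12 (adjusted p = 0.0189), with -0.32 ± 0.12 in PHD3-/- (adjusted p = 0.0934). Starved samples lay below controls for both genes in both genotypes. The wild-type Herpud1 call was lost without control replicate 2 (adjusted p = 0.0613) or starved replicate 1 (0.0681) or 2 (0.0604). The PHD3-/- call was lost without control replicate 1 or 2 or starved replicate 2 or 3 (adjusted p between 0.0549 and 0.116), with normexp (0.176), in the authors' table (0.0738), without a filter (0.0578), with the first array alone (0.058) and with slide as a block (0.0942). The Sel1l call was lost without control replicate 2 (0.0986) or 3 (0.0624) or starved replicate 1 (0.0982), and in PHD3-/- it passed without the 3 samples that stood apart (adjusted p = 0.0363).

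Other genes did not pass when starved. Dnajb9 differed by 0.33 (adjusted p = 0.0682) and 0.25 (0.18), Ppp1r15a by -0.30 (0.0888) and -0.16 (0.414), and Calr by 0.47 (interval 0.04 to 0.90, adjusted p = 0.166) and 0.32. The other, dimmer Dnajb9 probe gave larger differences, 0.54 in wild type and 0.79 in PHD3-/-. Derl2 differed by 0.24 and 0.27, and passed in PHD3-/- without control replicate 3 (0.35, adjusted p = 0.0427), with quantile normalization (0.30, 0.037) and in the authors' table (0.28, 0.0453), while another of its 3 probes gave -0.23 and -0.21. The summed stromal and endothelial markers were lower in every starved sample than in every control, with Col1a1 changed by -3.43 in wild type and -3.52 in PHD3-/-. Taken singly, 40% of these 5 markers fell in each genotype and the others did not pass. Of all genes, 6.02% fell in wild type and 6.38% in PHD3-/-. The summed neutrophil markers were lower too (2.84 to 3.22 against 3.56 to 4.20 in wild type, 2.50 to 3.18 against 3.26 to 3.95 in PHD3-/-). The summed plasma and B cell markers were lower in starved wild type (2.63 to 2.73 against 2.81 to 3.06). In PHD3-/- their sums overlapped (2.93 to 3.05 against 2.93 to 3.16). Of the 5 tested, 20% rose in each genotype, and 40% fell in wild type and 60% in PHD3-/-. Of all genes, 6.49% rose in wild type and 7.13% in PHD3-/-. The part of these markers in the changes of Atf6, Herpud1, Sel1l and Eif2ak3 was not tested.

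Compared directly, low oxygen and starvation differed for 14 of the 31 genes in wild type and for 13 in PHD3-/-, against 38.1% and 37.1% of all genes. In wild type 9 were higher (29.0%) and 5 lower (16.1%) at low oxygen, against 19.8% and 18.3% of all genes, and in PHD3-/- 10 were higher (32.3%) and 3 lower (9.7%), against 19.2% and 17.9%. Atf6 was higher at low oxygen by 0.71 (adjusted p = 0.00038) and 0.89 (5.16e-05), Sel1l by 0.43 (0.00968) and 0.39 (0.0175), Ppp1r15a by 1.17 (8.85e-07) and 0.99 (4.7e-06), and Ern1 by 0.82 (9.35e-06) and 0.79 (1.24e-05). The lectin Calr was lower at low oxygen than after starvation, by -0.72 (adjusted p = 0.011) and -0.54 (0.0472), and Sdf2l1 by -0.60 (0.00931) and -0.59 (0.0102). Herpud1, which fell under each stress, was lower at low oxygen by -0.38 (adjusted p = 0.0216) and -0.44 (0.00892). Creld2 (-0.31, adjusted p = 0.0242) and Dnajc3 (-0.29, adjusted p = 0.0274) were lower at low oxygen in wild type. Single samples decided several of these calls. They were lost for Calr in PHD3-/- without low-oxygen replicate 1 or 2 or starved replicate 2 or 3 (adjusted p between 0.119 and 0.152), for Herpud1 in wild type without low-oxygen replicate 2 (0.0991) or starved replicate 3 (0.0777), and for Sel1l without starved replicate 1 in wild type (0.051) or starved replicate 2 in PHD3-/- (0.0719). Those for Creld2 were lost without low-oxygen replicate 1 or 3 or starved replicate 3 (0.0728 to 0.0929), and those for Dnajc3 without replicate 1 or 2 of either group (0.0584 to 0.100). Processing ended some of them too. The Calr call in PHD3-/- was lost with a replicate block (adjusted p = 0.0585), the authors' table (0.0572), the first array alone (0.0903), slide as a block (0.128), no filter (0.0807) and normexp (0.0983). With that replicate block Sec61b passed in PHD3-/- (0.38, adjusted p = 0.0484). Normexp also ended the calls of Herpud1 (0.171 and 0.0615) and Sdf2l1 (0.0594 and 0.069) in both genotypes and of Creld2 (0.267) and Dnajc3 (0.194) in wild type. Without a filter Creld2 (0.0559) and Dnajc3 (0.0629) were lost, with slide as a block Creld2 (0.116) and Herpud1 in wild type (0.0538), and without the 3 samples that stood apart Creld2 (0.0982) and Herpud1 in wild type (0.0683).

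Loss of PHD3 was not seen to shift these genes. Between PHD3-/- and wild type, none of the 31 genes passed in controls, at low oxygen or after starvation, where 0% of all genes passed, and none had an unadjusted p under 0.05, compared with 290, 353 and 394 of all 20813 genes. With so few over all genes, finding none among 31 is near the background. Averaged over the 3 conditions, none of the 31 passed either, against 0.024% of all genes (5 genes). The largest differences were 0.37 for Derl3 in controls and 0.42 for Hyou1 when starved, and the median interval reached 0.26 to either side of the estimate. In each condition 30 of the 31 intervals lay within a 2-fold change. The summed level of the macrophage markers was lower in PHD3-/- by the values given with the marker lists, although no single marker passed in any condition. The part of these markers in the differences was not tested. For Ero1a the difference was -0.19 (interval -0.59 to 0.20) in controls, -0.22 (-0.62 to 0.18) at low oxygen and 0.06 (-0.34 to 0.46) when starved. For Hspa5 it was 0.06 (-0.19 to 0.31), -0.09 (-0.35 to 0.16) and -0.03 (-0.28 to 0.22), and for Herpud1 0.11 (-0.14 to 0.37), 0.10 (-0.16 to 0.35) and 0.16 (-0.09 to 0.42).

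The response to each stress was also compared between genotypes. No interaction passed for any of the 31 genes, or for any of all genes (0%), at low oxygen or after starvation, and 230 and 216 of all genes had an unadjusted p under 0.05. The low-oxygen change of Ero1a differed by -0.03 (interval -0.59 to 0.53) between PHD3-/- and wild type, that of P4hb by -0.02 (-0.43 to 0.38), that of Hspa5 by -0.16 (-0.51 to 0.20) and that of Herpud1 by -0.02 (-0.38 to 0.34). After starvation the change of Atf6 differed by -0.12 (-0.49 to 0.25). All 14 genes called at low oxygen in wild type were also called in the same direction in PHD3-/-, which is 100% of the wild-type and 93.3% of the PHD3-/- calls, compared with 85.2% and 82.8% over all genes. For starvation 3 genes were shared, Atf6, Eif2ak3 and Herpud1, which is 75% of the wild-type and 100% of the PHD3-/- calls, compared with 79.6% and 73.7% over all genes.

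Other genes of the ER pathways were counted from lists, beside the 20.5% of all genes that rose and 18.1% that fell at low oxygen in wild type and the 21.4% and 18.3% in PHD3-/-. Of 18 genes of the PERK and ATF4 branch, 3 rose (16.7%) and 6 fell (33.3%) in wild type, and 3 rose (16.7%) and 5 fell (27.8%) in PHD3-/-. Atf3, a stress-induced transcription factor, rose by 0.70 in wild type, and Trib3, a pseudokinase induced by ATF4, by 0.61, while Chac1, a glutathione-degrading enzyme that ATF4 also induces, fell by 0.91 and Eif2b3, a subunit of the exchange factor of eIF2, fell by 0.85. Atf4 differed by -0.33 and Ddit3 (CHOP), the pro-apoptotic factor of this branch, by -0.06, neither past the threshold. After starvation, where 6.02% of all genes fell in wild type and 6.38% in PHD3-/-, none of the 18 rose and 3 fell in wild type, among them Nupr1, a stress-induced chromatin protein (-0.96), and Trib3 (-0.84), and none rose and 2 fell in PHD3-/-. Of 15 partners of ATF6 and IRE1, 4 rose (26.7%) and 1 fell at low oxygen in wild type and 2 rose (13.3%) and 1 fell in PHD3-/-, led by Tmbim6 (0.52), a membrane protein that binds IRE1.

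Transcripts of proteins that move chains into, through and out of the ER mostly rose or did not pass at low oxygen. Of all genes, 20.5% rose and 18.1% fell there in wild type, and 21.4% and 18.3% in PHD3-/-. Of 23 tested genes for translocation and signal cleavage, 9 rose (39.1%) and 0 fell in wild type and 10 rose (43.5%) and 0 fell in PHD3-/-, led by Tram2 (0.68 and 0.73). Of 18 genes for COPII export and retrieval, 7 rose (38.9%) and 0 fell in wild type and 9 rose (50%) and 2 fell in PHD3-/-, where Surf4, a cargo receptor, rose by 0.91 and 0.93, from between 4.59 and 4.81 in wild-type controls to between 5.44 and 5.78 at low oxygen. Of 19 genes for N-glycosylation, 5 rose (26.3%) and 2 fell in wild type and 6 rose (31.6%) and 2 fell in PHD3-/-, led by Stt3b, a catalytic subunit of the oligosaccharyltransferase, at 1.02 and 1.03. Of 22 other ERAD genes, 6 rose (27.3%) and 1 fell in wild type and 8 rose (36.4%) and 1 fell in PHD3-/-, led by the ubiquitin-conjugating enzyme Ube2g1 (0.73 and 1.02). Of 28 other folding enzymes, 8 rose (28.6%) and 3 fell in wild type and 12 rose (42.9%) and 3 fell in PHD3-/-. The wild-type shares of the N-glycosylation, ERAD and folding lists lay near that of all genes. Sdf2, the paralogue of Sdf2l1, rose by 0.74 and 0.76, from between 3.76 and 3.90 in wild-type controls to between 4.51 and 4.65 at low oxygen, while Sdf2l1 itself fell.

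With rises and falls counted separately, starvation moved at most 2 genes in any of these last 5 lists in either genotype. It moved none of the other ERAD and N-glycosylation genes. In no list did more than 5.6% rise or more than 11.1% fall. Of all genes, 6.49% rose and 6.02% fell in wild type, and 7.13% and 6.38% in PHD3-/-. In lists of this length such counts are near the background. Fkbp10, a prolyl isomerase that folds collagens, fell by 3.37 on the log2 scale in wild type (adjusted p = 3.48e-06) and by 3.22 in PHD3-/- (adjusted p = 4.34e-06). Its levels lay between -2.76 and -1.88 in wild-type controls and between -6.21 and -5.05 when starved, where 2 of 3 samples were well above background. Kdelr3, a receptor that returns escaped ER proteins, rose by 1.40 at low oxygen in wild type (adjusted p = 0.00521) and was not well above background in any of the 6 starved samples. Col1a1, the collagen among the stromal markers, lay between -0.62 and 0.27 in wild-type controls and between -3.85 and -3.38 in the same starved samples.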

How the data were processed

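RNA of 18 samples in 6 groups of 3 was hybridised to 20 single-colour arrays on 5 slides. Per the file headers, Agilent Feature Extraction 10.7.3.1 made the deposited intensity values, from which it had taken background and spatial trends array by array, and arrays were not scaled to each other. The authors' deposited series table holds log2 values whose columns share nearly the same distribution, and the submitters' processing notes name limma. The label field names biotin and the labelling protocol Cy3.

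Here log2 processed signals were set relative to the 75th percentile of their array, spots called non-uniform or population outliers were removed, and the arrays of samples hybridised more than once were averaged. A probe was tested when well above background in at least 3 samples with at least 2 values in every group, and the brightest probe stood for a gene. Probes were named through transcript accessions in a RefSeq table, which gave a symbol to 26055 of 39429 probes (66.1%), and 14008 of the 20813 genes tested had a symbol. A model of 6 group means over all samples was fitted with limma 3.58.1 in R 4.3.3, with 12 residual and 2.48 prior degrees of freedom, after the code had been tested on simulated data. Tests were two-sided, with Benjamini-Hochberg adjustment over the 20813 genes, a threshold of 0.05 and 95% intervals. The error after a log2 change is its standard error. Precision is limited by having 3 samples a group.

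The 33 genes, the related lists, the marker lists and the alternatives were chosen with earlier results of these data known. All 33 genes could be named, and from each related list at most 2 genes past the threshold with the largest rise and 2 with the largest fall. Canx was described with flagged spots kept, and Egln3, Atf4, Ddit3, Col1a1 and the per-sample values of related genes were added after their values were seen. The files hold no mean signal, so the normexp alternative used the median signal, a change made after seeing the data. Deviations of same-numbered samples from their group means correlated above 0.1 in every pair only between the low-oxygen and starved samples of PHD3-/- (0.154, 0.177 and 0.161). A replicate block was therefore an alternative, from the data and not the labels, and its effect on that comparison stands beside it. In the other comparisons not every pair exceeded 0.1 (0.217, -0.073 and 0.286 for low oxygen in wild type). Such correlations cannot show that samples are unpaired, so pairing there is unknown. Promoter windows came from RefSeq, build GRCm38.p6. Not analysed here were proteins and probe positions.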

Additional observations from a re-analysis of the deposited data

How the results depend on the processing

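Normexp background correction changed most: 7 genes rose and 1 fell at low oxygen in wild type and 6 rose and 1 fell in PHD3-/-, 0 rose and 1 fell after starvation in PHD3-/-, and between low oxygen and starvation 1 was lower in wild type and 0 in PHD3-/-. Over all genes it left 1966 rises and 1968 falls at low oxygen in wild type, where there were 4274 and 3765, 2111 and 2110 (from 4453 and 3815) in PHD3-/-, 708 and 419 (from 1350 and 1252) after starvation in wild type and 525 and 395 (from 1485 and 1327) in PHD3-/-. For low oxygen against starvation it left 1852 and 2143 (from 4130 and 3804) in wild type and 1932 and 1826 (from 3998 and 3721) in PHD3-/-. It moved the median of all genes by 0.17 after starvation in wild type, where higher genes made up 62.8% of the calls in place of 51.9%, and testing without a filter on background moved the median at low oxygen in wild type by 0.17. Without that filter 1 gene fell at low oxygen in each genotype, 0 rose and 1 fell after starvation in PHD3-/-, and 3 were lower at low oxygen than after starvation in wild type. With slide as a block 1 gene fell at low oxygen in wild type, 1 fell after starvation in PHD3-/- and 3 were lower at low oxygen than after starvation in wild type.

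Quantile normalization and the authors' table each gave 2 rises after starvation in PHD3-/-, and the authors' table and the first array alone each gave 1 fall there. Without the 3 samples that stood apart in an earlier analysis (wild-type control replicate 1, wild-type starved replicate 3 and PHD3-/- control replicate 3), 5 genes fell at low oxygen in PHD3-/-, with Calr and Derl3 added, and 3 were lower at low oxygen than after starvation in wild type. Leaving out 1 sample at a time gave 9 to 11 rises and 1 to 2 falls at low oxygen in wild type and 8 to 11 and 1 to 4 in PHD3-/-. After starvation it gave 1 rise and 1 to 3 falls in wild type and 0 to 1 and 1 to 2 in PHD3-/-, and 3 to 4 genes were lower at low oxygen than after starvation in wild type. Over all genes, starvation in wild type gave 899 rises and 796 falls without starved replicate 1, and 821 falls without control replicate 3.

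With a replicate block (the replicate number as a term), 11 genes rose and 2 fell at low oxygen in wild type, 13 and 2 in PHD3-/-, and the starvation counts were 1 and 3 in wild type and 1 and 2 in PHD3-/-. Between low oxygen and starvation in PHD3-/-, where the numbers may pair the samples, it gave 11 higher and 2 lower, with Calr lost (adjusted p = 0.0585) and Sec61b gained (0.0484). In the other comparisons it ended the low-oxygen calls of Syvn1 in wild type (0.0569) and Sdf2l1 in PHD3-/- (0.058). It added Pdia4 at low oxygen in PHD3-/- (0.0442) and Edem1 between the stresses in wild type (0.0358). Whether the numbers pair samples in those comparisons is unknown. No gene of the 31 changed direction past the threshold under any alternative, and none differed between genotypes under any alternative. With 3 samples a group, the smallest log2 change of the 31 genes that passed at low oxygen or after starvation was 0.21.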
